A study of Mus musculus with 18 samples.

Results

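The comparison described here is a difference between ratios: how far each transcript was enriched in tagged-ribosome RNA over whole-cortex RNA in tumor-bearing mice given AZD8055, against the same enrichment in untreated tumor-bearing mice. It uses 12 of the 18 libraries of the series, 3 input and 3 immunoprecipitated (IP) libraries per condition, which form 3 IP-over-input pairs with AZD8055 and 3 without. All genes that passed a filter on low counts, 16016 of the 23420 in the count table, were members. The 3 control pairs of the series were used to read the tumor ratios.

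All mice carried the genotype Camk2a-Cre-Rpl22HA. In such mice the Camk2a promoter drives Cre recombinase in excitatory neurons of the forebrain, and Cre switches on a hemagglutinin-tagged copy of the large-subunit ribosomal protein Rpl22. An antibody to the tag then pulls down ribosomes of those neurons with the mRNAs on them, so that the IP-over-input ratio of a transcript is read as its share in tagged ribosomes relative to its share in the whole tissue. Transcripts of cells without the tag, such as glia, glioma cells and vessels, are known to lose share in such a pull-down, and transcripts of the tagged neurons to gain it. AZD8055 is an ATP-competitive inhibitor of the kinase mTOR, in both of its complexes. mTOR complex 1 is best known for favouring translation of mRNAs that begin with a tract of pyrimidines, the 5′ terminal oligopyrimidine (TOP) mRNAs of ribosomal proteins and elongation factors.

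The groups were controls without tumor, mice with glioma cells implanted in the cortex, and tumor mice treated with AZD8055. Dose, treatment time, age and the number of animals were not given in the sources used here, and the labels do not say that each replicate number is a separate mouse, so each p-value reflects how these libraries vary, which may be technical. Library totals ran from 13561511 to 34178417 counts. The library names fall into 3 sets by their prefix: PD013 holds all control and tumor inputs, PD015 all control and tumor IPs, and PD028 all AZD8055 libraries. A tumor ratio is thus formed across sets PD015 and PD013, an AZD8055 ratio within set PD028, and set and treatment cannot be told apart in this contrast. The control ratios cross the same sets as the tumor ratios and are given beside the results for that reason. Against input, 22 of 26 excitatory-neuron markers were called higher in the AZD8055 IP, where 27.1% of all genes were. In the tumor IP 2 of 26 were, near the 6.56% of all genes. Of 24 astrocyte markers 23 were called lower in the AZD8055 IP, where 33.8% of all genes were. In the tumor IP 0 of 24 were called on either side, where 6.56% of all genes were higher and 7.33% lower.

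The ratios were far wider with AZD8055 than without. The interquartile range of log2 IP over input across genes was 1.45, 1.35 and 1.12 in the AZD8055 pairs, against 0.51, 0.50 and 0.51 in the tumor pairs and 0.68, 0.49 and 0.56 in the control pairs. The widening lay mostly below 0. Between 19.7% and 24.7% of genes had a log2 ratio under -1 in an AZD8055 pair, against 2.90% to 4.15% in a tumor pair. Above 1 the shares were 3.63% to 6.67% with AZD8055 and 3.35% to 4.45% in tumor. Every AZD8055 pair was wider than every tumor and control pair.

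**Figure D1:**
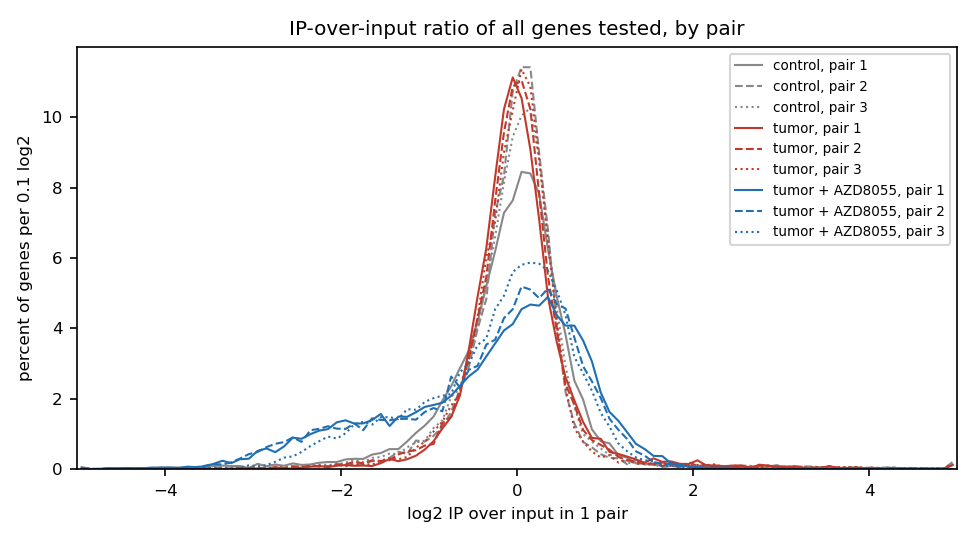
Distribution of log2 IP over input (x axis) across the 16016 genes tested, as the percent of genes in each step of the x axis (y axis), with 1 line for each of the 9 pairs. The 3 AZD8055 lines are lower at the centre and carry a broad shoulder below -1 that the 3 tumor and 3 control lines lack; ratios beyond 5 on either side are counted in the outermost step.

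Tested gene by gene with edgeR's quasi-likelihood test, the ratio was higher with AZD8055 than in tumor for 1969 genes (12.3%) and lower for 3327 genes (20.8%), at an adjusted p under 0.05. With each input and IP library held together as a pair, 3484 (21.8%) were higher and 4541 (28.4%) lower. Without AZD8055 replicate 2 the calls fell to 3498 in all. When libraries were scaled by their plain totals instead of by trimmed means, the split became 871 higher and 4037 lower, and the median of all genes went from -0.04 to -0.22 on the log2 scale, so the sign of small differences rests on the scaling. The 3 AZD8055 ratios did not overlap the 3 tumor ratios for 9027 genes (56.4%).

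For most of these genes the AZD8055 ratio was itself called and the tumor ratio was not. Against their own inputs, 4338 genes (27.1%) were higher and 5406 (33.8%) lower in the AZD8055 IP, whereas in tumor 1051 (6.56%) were higher and 1174 (7.33%) lower. Of the 1969 genes with a higher ratio, 1722 were called above input in the AZD8055 IP, and the tumor ratio of 1603 was not called on either side. Of the 3327 with a lower ratio, 2996 were called below input with AZD8055, and the tumor ratio of 2763 was not called. Split into its parts, the difference between the IP libraries was larger than that between the inputs for 1634 of the 1969 (83.0%) and for 2776 of the 3327 (83.4%).

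Excitatory-neuron genes gained ratio with AZD8055. Of 26 tested, 11 were higher and 0 lower, against 12.3% and 20.8% of all genes. With the pairs held together 18 were higher and 1 lower, against 21.8% and 28.4%. The list's median difference was 0.77 on the log2 scale against -0.04 for all genes. Its median ratio was 1.12 ± 0.06 (SD, n = 3 pairs) with AZD8055, 0.34 ± 0.16 in tumor and 0.23 ± 0.08 in controls. Nrgn, which encodes the postsynaptic calmodulin-binding protein neurogranin, had log2 ratios of 1.53, 1.44 and 1.09 in the AZD8055 pairs and 0.02, -0.45 and -0.58 in the tumor pairs. Its transcript stood at 362, 433 and 416 CPM, counts scaled to library size, in the AZD8055 IPs and 129, 166 and 149 CPM in the tumor IPs, while the inputs overlapped. The difference was 1.71 ± 0.27 (SE, adjusted p = 2.05e-04). Slc17a7, the vesicular glutamate transporter of cortical excitatory neurons, went from tumor ratios of 0.52, -0.03 and 0.03 to 1.61, 1.28 and 1.13, a difference of 1.19 ± 0.23 (SE, adjusted p = 0.00119). All 3 AZD8055 values of both genes lay above all tumor and control values. Neurod2, a transcription factor of these neurons, rose by 1.16 ± 0.22 (SE, adjusted p = 8.58e-04), and the vesicle protein gene Sv2b by 0.88 ± 0.21 (SE, adjusted p = 0.00441).

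Camk2a, whose promoter drives the Cre, did not pass. Its ratios were 1.20, 1.32 and 1.60 with AZD8055 and 1.28, 1.17 and 0.21 in tumor, so the groups overlapped, and the difference was 0.66 ± 0.48 (SE, adjusted p = 0.311). Tumor pair 3 was the low one, and tumor input 3 carried 713 CPM of Camk2a against 226 and 351 in the other tumor inputs. The excitatory-neuron markers summed to 8402 to 9543 CPM in the AZD8055 IPs, 3542 to 4714 in the tumor IPs and 7454 to 8647 in the control IPs, with inputs of 3445 to 4551, 2291 to 4198 and 6658 to 6681. Without tumor replicate 1 the count of excitatory genes with a higher ratio was 16, and without AZD8055 replicate 2 it was 7.

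**Figure D2:**
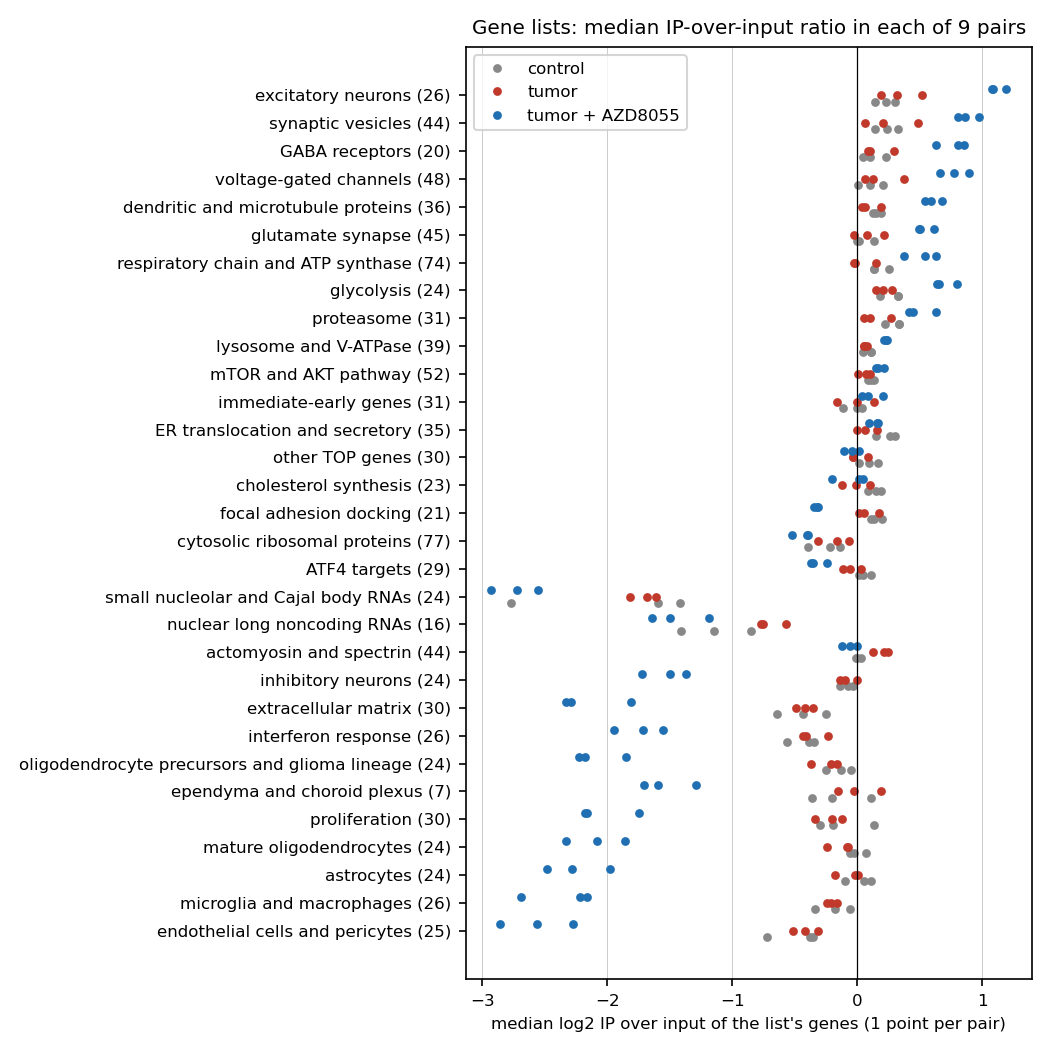
Median log2 IP over input of the genes of each list (x axis), with 1 point per pair, coloured by condition; lists are ordered by their median difference between AZD8055 and tumor, with the number of genes tested in brackets (lists with under 5 tested genes are not drawn). AZD8055 points sit far left of tumor points for inhibitory-neuron, glial, immune, vascular and proliferation lists. They sit right of tumor points for excitatory-neuron, synaptic, receptor and channel lists, while tumor and control points lie close together in most rows.

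Synaptic-vesicle genes had higher ratios with AZD8055. Of 44 tested 24 were higher and 1 lower, against 12.3% and 20.8% of all genes, with a median of 0.66. With the pairs held together 31 were higher and 4 lower, against 21.8% and 28.4%. Syn1, which encodes the vesicle-tethering phosphoprotein synapsin 1, had ratios of 1.67, 1.45 and 1.42 with AZD8055 and 0.40, 0.13 and -0.40 in tumor, with no overlap, and differed by 1.51 ± 0.32 (SE, adjusted p = 0.00203). Sh3gl2, encoding endophilin A1 of vesicle endocytosis, rose by 1.27 ± 0.26 (SE, adjusted p = 0.00167). Napa, the SNARE-disassembly factor alpha-SNAP, rose by 1.05 ± 0.17 (SE, adjusted p = 2.52e-04). Complexin 2 (Cplx2), a clamp of the SNARE complex, differed by 0.56 ± 0.32 (SE, adjusted p = 0.196) and passed with the pairs held together (adjusted p = 0.00321).

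Among 45 glutamate-synapse genes 7 were higher (15.6%, near the 12.3% of all genes) and 3 lower, or 26 and 5 with the pairs held together, with a median of 0.47. Grin1, the obligatory subunit of NMDA receptors, was below input in all tumor pairs at -0.57, -0.77 and -0.90 and above it in all AZD8055 pairs at 0.84, 1.05 and 0.72. The controls stood at -0.73, -0.96 and -0.75, on the tumor side, and the difference was 1.64 ± 0.24 (SE, adjusted p = 9.50e-05). Cnih2, an AMPA receptor auxiliary subunit, rose by 0.87 ± 0.20 (SE, adjusted p = 0.00337). Gria2, which encodes the AMPA subunit GluA2, had a difference of 0.29 ± 0.15 (SE, adjusted p = 0.151). The kainate receptor gene Grik1 fell, at -1.20 ± 0.31 (SE, adjusted p = 0.00782), as did the scaffold gene Homer3, at -1.18 ± 0.33 (SE, adjusted p = 0.0114).

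Of 20 GABA receptor genes 4 were higher (20%, against 12.3% of all genes) and 1 lower (5%, against 20.8%), or 15 and 1 with the pairs held together. Gabbr2, a subunit of the metabotropic GABA-B receptor, rose by 1.08 ± 0.21 (SE, adjusted p = 0.0011) and Gabra5, an ionotropic GABA-A subunit, by 1.01 ± 0.18 (SE, adjusted p = 4.99e-04). The single member that fell was Gabrg1, another GABA-A subunit, at -1.05 ± 0.20 (SE, adjusted p = 9.37e-04). Voltage-gated channel genes gave 13 higher (27.1%) and 0 lower of 48, or 37 and 0 with the pairs held together, with a median of 0.55. The calcium channel genes Cacnb1 and Cacna2d1 rose by 0.98 ± 0.26 (SE, adjusted p = 0.00841) and 0.91 ± 0.25 (SE, adjusted p = 0.00989). Kcnh1, a potassium channel, rose by 0.92 ± 0.21 (SE, adjusted p = 0.00373).

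The counts in these 4 lists moved with single libraries. Without tumor replicate 1, the genes with a higher ratio numbered 28 of 44 for synaptic vesicles, 24 of 45 for the glutamate synapse, 13 of 19 for GABA receptors and 31 of 48 for channels. Without any 1 of the other tumor or AZD8055 replicates they ran from 15 (without AZD8055 replicate 2) to 19 for synaptic vesicles, from 2 (without tumor replicate 3) to 5 for the glutamate synapse, from 3 to 4 for GABA receptors and from 5 (without AZD8055 replicate 2) to 9 for channels. With plain library totals 18 synaptic-vesicle genes were higher and 2 lower, 2 glutamate-synapse genes higher and 6 lower, 3 GABA receptor genes higher and 1 lower, and 7 channel genes higher and 0 lower. Lower calls were thus the more numerous for the glutamate synapse under that scaling. The median of each of the 4 lists was above 0 in all of these settings.

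Dendritic and microtubule protein genes had 10 higher (27.8%, against 12.3% of all genes) and 2 lower (5.56%, against 20.8%) of 36. With the pairs held together 23 were higher and 2 lower. Without tumor replicate 1 the higher numbered 17, and without tumor replicate 3 they numbered 6. The tubulin gene Tuba4a rose by 1.44 ± 0.28 (SE, adjusted p = 0.0011), the neuronal tubulin gene Tubb3 by 0.74 ± 0.15 (SE, adjusted p = 0.00191) and the dynein light chain gene Dynll1 by 0.95 ± 0.17 (SE, adjusted p = 6.68e-04).

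Energy genes shifted with the neuronal lists, and by smaller steps. For the respiratory chain and ATP synthase, 36 of 74 genes were higher (48.6%, against 12.3% of all genes) and 0 lower (against 20.8%), with a median of 0.41. The list's median ratio was 0.52 ± 0.13 (SD, n = 3 pairs) with AZD8055, 0.03 ± 0.10 in tumor and 0.18 ± 0.07 in controls. Ndufb4, a complex I subunit, had ratios of 0.79, 0.64 and 0.44 with AZD8055 and -0.56, -0.51 and -0.26 in tumor, a difference of 1.07 ± 0.14 (SE, adjusted p = 3.98e-05). The AZD8055 values were all above 0 and the tumor values all below it. Atp5d, of the ATP synthase, rose by 1.02 ± 0.16 (SE, adjusted p = 1.94e-04), Cox6a1, of complex IV, by 0.76 ± 0.15 (SE, adjusted p = 0.00145), and Ndufa5 by 0.68 ± 0.13 (SE, adjusted p = 7.67e-04). Atp5b, the catalytic beta subunit of the ATP synthase, had a difference of 0.32 ± 0.14 (SE, adjusted p = 0.0801) and passed with the pairs held together (adjusted p = 0.0371). The count was 23 without tumor replicate 2, 24 without AZD8055 replicate 2 and 16 with plain library totals.

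Of 24 glycolysis genes 10 were higher (41.7%, against 12.3% of all genes) and 3 lower (12.5%, against 20.8%). With the pairs held together 13 were higher and 7 lower, against 21.8% and 28.4%. The lower calls were thus below the share of all genes without pairing and near it with pairing. Gapdh rose by 0.77 ± 0.16 (SE, adjusted p = 0.00216) and Pgam1 by 0.78 ± 0.16 (SE, adjusted p = 0.00139). Aldoc, the aldolase of astrocytes, fell by 2.20 on the log2 scale, from tumor ratios of -0.34, -0.16 and 0.10 to -2.29, -2.52 and -2.20. Slc2a1, the glucose transporter of brain endothelium and glia, had a difference of -1.53 ± 0.19 (SE, adjusted p = 2.63e-05). Proteasome genes gave 5 higher (16.1%, near the 12.3% of all genes) and 0 lower of 31. With the pairs held together 20 were higher and 0 lower. Without tumor replicate 2, or with plain library totals, 0 were higher. Among proteasome genes Psmd8 differed by 0.50 ± 0.15 (SE, adjusted p = 0.0149) and Psmc4 by 0.48 ± 0.17 (SE, adjusted p = 0.0379). Both lost their call without tumor replicate 2 and without AZD8055 replicate 2.

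Inhibitory-neuron genes moved the other way. Of 24 tested, 12 were lower (50%, against 20.8% of all genes) and 1 higher (4.17%, against 12.3%), and the median difference was -1.27. With the pairs held together 18 were lower and 1 higher, against 28.4% and 21.8%. The list's median ratio was -1.53 ± 0.18 (SD, n = 3 pairs) with AZD8055, -0.08 ± 0.07 in tumor and -0.08 ± 0.05 in controls. Vip, a neuropeptide that defines a class of interneurons, had ratios of -2.50, -2.82 and -2.34 against -0.35, 0.17 and 0.08 in tumor, and differed by -2.56 ± 0.43 (SE, adjusted p = 3.68e-04). Gad1, the main GABA-synthesising enzyme, stood at 112, 50.6 and 93.1 CPM in the AZD8055 IPs and 179, 318 and 265 in the tumor IPs. All AZD8055 IP values were below all tumor IP values, the inputs overlapped, and the ratio differed by -1.73 ± 0.33 (SE, adjusted p = 9.43e-04). Sox6, Erbb4 and Adarb2, which mark interneurons of different origins, differed by -1.92, -1.30 and -1.02, and all 3 passed. Gad2, the other GABA-synthesising enzyme, had a difference of -1.06 ± 0.43 (SE, adjusted p = 0.0659) and passed with the pairs held together. The 1 member that rose was Cck, at 1.47 ± 0.28 (SE, adjusted p = 0.00107), a neuropeptide gene that cortical pyramidal cells also express, named here after its values were seen.

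Astrocyte, oligodendrocyte, microglial and vascular genes had lower ratios with AZD8055. All 24 astrocyte genes were lower, against 20.8% of all genes, with a median difference of -2.10, and the list's median ratio was -2.25 ± 0.25 (SD, n = 3 pairs) against -0.06 ± 0.10 in tumor and 0.02 ± 0.11 in controls. Aqp4, the water channel of astrocyte endfeet, stood at 46.7, 44.2 and 49.3 CPM in the AZD8055 IPs and 317, 288 and 233 CPM in the tumor IPs. Its inputs held 227, 234 and 210.3 CPM with AZD8055 and 359.6, 293 and 238 in tumor. Thus the tumor IPs carried about as much Aqp4 as their inputs and the AZD8055 IPs did not, and the ratio differed by -2.17 ± 0.19 (SE, adjusted p = 6.46e-07). Gfap, the intermediate filament of reactive astrocytes, differed by -2.65 ± 0.55 (SE, adjusted p = 0.00191) and Slc1a3, the glutamate transporter GLAST, by -2.43 ± 0.18 (SE, adjusted p = 1.62e-07). Acsbg1, a fatty acid CoA ligase, and Ednrb, an endothelin receptor, differed by -2.61 ± 0.20 (SE, adjusted p = 1.62e-07) and -2.41 ± 0.16 (SE, adjusted p = 5.01e-08).

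Of 24 mature oligodendrocyte genes 19 were lower (79.2%, against 20.8% of all genes) and 0 higher (against 12.3%), with a median of -1.95. The tight-junction gene of myelin, Cldn11, differed by -2.60 ± 0.31 (SE, adjusted p = 1.34e-05), transferrin (Trf) by -2.43 ± 0.32 (SE, adjusted p = 3.61e-05) and the myelin enzyme gene Cnp by -2.07 ± 0.21 (SE, adjusted p = 3.37e-06). Myelin basic protein (Mbp), whose mRNA is carried out into myelin processes, had ratios of -1.45, -1.63 and -1.31 with AZD8055 and -0.40, -0.32 and -0.53 in tumor. These did not overlap, yet the difference of -1.02 ± 0.51 (SE, adjusted p = 0.135) passed with the pairs held together (adjusted p = 1.83e-06).

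Of 26 microglia and macrophage genes 23 were lower (88.5%, against 20.8% of all genes) and 0 higher (against 12.3%), with a median of -2.14. The complement gene C1qa had ratios of -2.29, -2.96 and -2.34 with AZD8055 and -0.09, 0.22 and 0.54 in tumor, a difference of -2.76 ± 0.23 (SE, adjusted p = 5.52e-07), and Itgam, which encodes CD11b, differed by -2.73 ± 0.19 (SE, adjusted p = 9.29e-08). The complement gene C1qc differed by -2.37 ± 0.19 (SE, adjusted p = 4.00e-07) and the microglial receptor gene Fcrls by -2.49 ± 0.21 (SE, adjusted p = 5.82e-07). Of 25 endothelial and pericyte genes 23 were lower (92%, against 20.8% of all genes) and 0 higher (against 12.3%), with a median of -2.14. The endothelial claudin gene Cldn5 differed by -2.33 ± 0.39 (SE, adjusted p = 2.96e-04), the receptor gene Tie1 by -2.85 ± 0.37 (SE, adjusted p = 3.23e-05) and the pericyte gene Rgs5 by -1.89 ± 0.15 (SE, adjusted p = 3.97e-07). Abcc9, a potassium channel subunit of pericytes, differed by -2.24 ± 0.24 (SE, adjusted p = 4.30e-06). Interferon-response genes gave 12 lower (46.2%, against 20.8% of all genes) and 0 higher of 26. With the pairs held together 19 were lower and 0 higher, and 7 were lower without AZD8055 replicate 2. Ifit2 differed by -1.89 ± 0.24 (SE, adjusted p = 3.19e-05) and Rtp4 by -2.18 ± 0.54 (SE, adjusted p = 0.00575). Extracellular-matrix genes gave 23 lower (76.7%, against 20.8% of all genes) and 1 higher (3.33%, against 12.3%) of 30. The laminin gene Lamb2 differed by -2.68 ± 0.28 (SE, adjusted p = 3.45e-06) and the proteoglycan gene Ncan by -1.11 ± 0.14 (SE, adjusted p = 3.18e-05).

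For astrocyte, microglial and vascular genes the difference lay in the IPs. The median difference between AZD8055 and tumor was -2.07 in the IP and 0.02 in the input for astrocyte genes, -2.23 and -0.07 for microglial genes, and -2.23 and -0.05 for vascular genes. Summed over its 24 markers, the astrocyte level was 2775 to 3580 CPM in the AZD8055 IPs, 7859 to 10218 in the tumor IPs and 11299 to 12277 in the control IPs, with inputs of 9023 to 11175, 9208 to 10706 and 11591 to 12702. No marker of any of these lists was at 0 in all libraries of a group. The level of these markers in the IPs moved with the contrast, and its part in the other results was not tested. Where an input level differs, fewer cells of a type and less RNA per cell cannot be told apart in such libraries.

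Glioma-lineage and proliferation genes had lower ratios as well, on top of a lower median level in the inputs, though the proliferation inputs overlapped. Of 24 genes of oligodendrocyte precursors, which glioma cells of this lineage also express, 21 had a lower ratio and 0 a higher one, with a median of -1.76. The lower share was 87.5%, against 20.8% of all genes, of which 12.3% were higher. Here the IP difference was -2.77 and the input difference -0.99. Pdgfra, the platelet-derived growth factor receptor alpha, stood at 3257, 2186 and 2613 CPM in tumor inputs and 2574, 1967 and 2357 in tumor IPs. With AZD8055 it stood at 1884, 1670 and 1241 CPM in inputs and 348, 245 and 276 in IPs. Both fractions were lower with AZD8055 in every library, the IP by far more, and the ratio differed by -2.24 ± 0.30 (SE, adjusted p = 4.32e-05). The transcription factor genes Olig2 and Olig1 differed by -2.28 ± 0.20 (SE, adjusted p = 6.92e-07) and -1.86 ± 0.19 (SE, adjusted p = 3.25e-06), and the proteoglycan genes Bcan and Cspg4 by -2.65 and -2.26, both past the threshold.

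Of 30 proliferation genes 26 were lower (86.7%, against 20.8% of all genes) and 0 higher (against 12.3%). The median was -1.81, with -2.20 in the IP and -0.35 in the input. Summed over the list, the inputs stood at 630 to 1700 CPM with AZD8055 and 1393 to 1463 in tumor, so the input sums overlapped. Mki67, the marker of cycling cells, had ratios of -1.77, -1.90 and -1.58 with AZD8055 and -0.26, -0.10 and -0.37 in tumor. Its inputs were 227, 92.0 and 79.8 CPM with AZD8055, where replicate 1 alone was as high as tumor, and 205, 223 and 234 in tumor. The ratio differed by -1.54 ± 0.51 (SE, adjusted p = 0.0291), and this call was lost without tumor replicate 2 or 3 or AZD8055 replicate 2, and when only the 12 libraries compared were fitted. The kinase gene Cdk1 differed by -2.47 ± 0.44 (SE, adjusted p = 5.35e-04), the replication licensing gene Mcm3 by -2.38 ± 0.48 (SE, adjusted p = 0.00133) and the spindle gene Tpx2 by -2.0 ± 0.40 (SE, adjusted p = 0.00127). Mcm6, another licensing gene, had a difference of -0.42 ± 0.57 (SE, adjusted p = 0.597) and passed with the pairs held together (adjusted p = 0.0314). Few members were tested of 3 further marker lists. Ependyma and choroid plexus had 3 of 7 lower (42.9%, against 20.8% of all genes). With the pairs held together 5 were lower, and without tumor replicate 3 or AZD8055 replicate 3 only 1 was. T cells had 0 of 3 called and erythrocytes 0 of 1 (1 lower with the pairs held together).

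**Figure D3:**
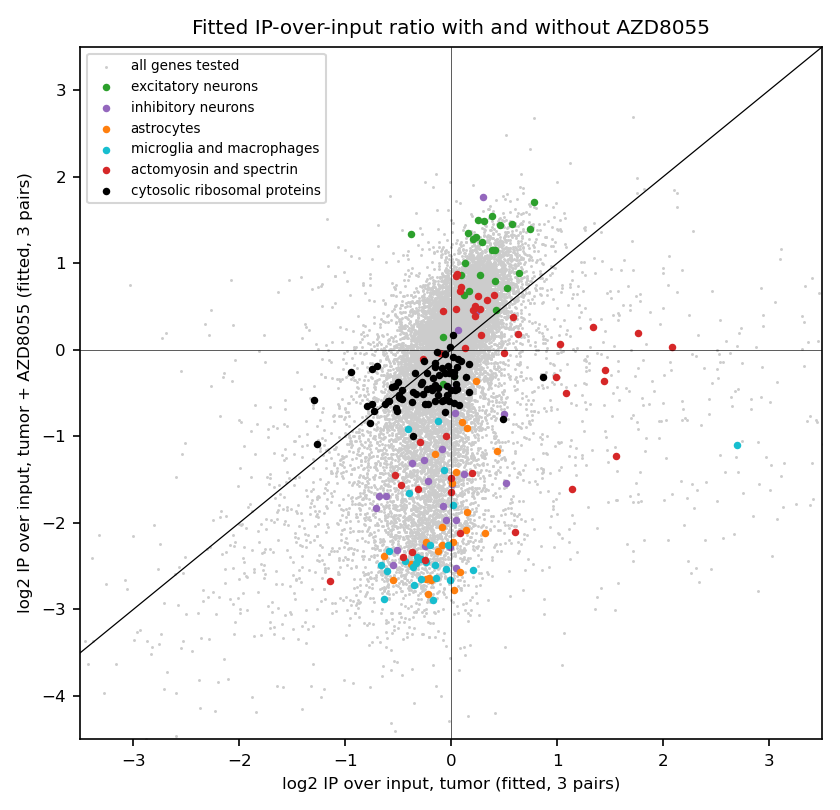
Fitted log2 IP over input in tumor (x axis) and with AZD8055 (y axis), with 1 grey point per gene tested and 6 lists in colour; the diagonal marks equal ratios, and genes beyond the axes are not drawn. Most astrocyte and microglial genes lie near 0 on the x axis and below -1 on the y axis (Cd163 is the point at far right), most excitatory-neuron genes lie above the diagonal, and some actomyosin genes lie to the right of 1 below the diagonal.

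TOP mRNAs are the best-known translational targets of mTOR. Their calls lay below the shares of all genes without pairing. With it, their higher calls were still below the share of all genes, and the lower calls of ribosomal protein genes were near it. Of 77 cytosolic ribosomal protein genes 3 were higher (3.90%) and 5 lower (6.49%), below the shares of all genes, with a median difference of -0.18. With the pairs held together 3 were higher and 22 lower, where 21.8% of all genes were higher and 28.4% lower. With plain library totals 0 were higher and 12 lower. Without AZD8055 replicate 2 the counts were 0 and 1. The list's median ratio was -0.44 ± 0.07 (SD, n = 3 pairs) with AZD8055, -0.18 ± 0.13 in tumor and -0.25 ± 0.13 in controls, so all were under 0. Against input, 47 of the 77 were called lower in the AZD8055 IP and 16 in the tumor IP, where 33.8% and 7.33% of all genes were. Of the 30 other TOP genes 1 was higher and 1 lower (3 and 7 with the pairs held together), with a median of -0.07. The lower one was Vim, the intermediate filament gene of glia and vessels, at -1.98 ± 0.52 (SE, adjusted p = 0.00818). Rpl4 had a difference of -0.17 ± 0.16 (SE, adjusted p = 0.426) and Eef1a1, the main elongation factor, -0.34 ± 0.19 (SE, adjusted p = 0.183), which passed with the pairs held together (adjusted p = 0.0225).

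The start sites of 5 named genes of this group are printed because the annotated starts carry, or lack, the pyrimidine tract that defines TOP mRNAs. Each line gives 30 bases around the annotated RefSeq start on GRCm38.p6, 5′ to 3′ on the gene's strand, with the first 8 transcribed bases in capitals.
Rpl35a: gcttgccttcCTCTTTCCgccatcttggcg
Rpl38: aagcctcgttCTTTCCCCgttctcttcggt
Eif3f: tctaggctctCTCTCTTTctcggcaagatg
Rpl13a: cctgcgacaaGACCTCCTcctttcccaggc
Rps16: ttctgtcgtgACGTAGCActcaatgcgcct
The windows are chr16:33056472-33056501 (+ strand) for Rpl35a, chr11:114668570-114668599 (+ strand) for Rpl38, chr7:108934405-108934434 (+ strand) for Eif3f, chr7:45128726-45128755 (- strand) for Rpl13a and chr7:28350679-28350708 (+ strand) for Rps16. The first 3 begin with 8 pyrimidines of 8, Rpl13a has 6 and the annotated Rps16 start has 3.

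The 3 genes printed with a full tract, picked from those that passed, differed in direction. Rpl35a, a large-subunit protein gene, had ratios of -0.44, -0.55 and -0.38 with AZD8055 and 0.11, -0.24 and 0.30 in tumor and fell, at -0.51 ± 0.17 (SE, adjusted p = 0.0285). Rpl38, also of the large subunit and with as full a tract, had ratios of -0.21, -0.18 and -0.38 and -0.91, -1.08 and -0.85 and rose, at 0.69 ± 0.23 (SE, adjusted p = 0.0277). Eif3f, a subunit of the initiation factor eIF3, went from -0.26, -0.22 and -0.41 to 0.12, 0.15 and 0.32, at 0.49 ± 0.13 (SE, adjusted p = 0.00736). The groups did not overlap for any of the 3.

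Rps16, of the small subunit, differed by -1.29 ± 0.30 (SE, adjusted p = 0.00347), with 34.0, 41.5 and 21.9 CPM in AZD8055 inputs and 16.1, 12.1 and 14.7 in tumor inputs, so that its difference lay in the inputs. Rpl13a differed by -0.65 ± 0.21 (SE, adjusted p = 0.0274). The calls of Rpl35a, Rpl13a and Rpl38 were lost without AZD8055 replicate 2 and when only the 12 libraries compared were fitted. Those of Rpl38 and Eif3f, which both rose, were lost with plain library totals. Ribosomal protein genes have many processed pseudogenes, so their counts may share reads with copies.

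The pyrimidine count was also set against the ratio over all genes with an annotated start. RefSeq starts were matched for 11586 tested genes, 2314 of them with several starts, of which the one with most pyrimidines was taken. The 177 genes (1.53%) with 8 of 8 pyrimidines had a median difference of -0.14, with 21 higher (11.9%) and 54 lower (30.5%), the highest share of lower genes among the 9 classes by pyrimidine count. The 2533 with 4 of 8 had a median of 0.00 and 19.6% lower, and the 225 with 0 of 8 a median of -0.19, with 16 higher (7.11%) and 62 lower (27.6%). Genes with a full tract at the annotated start and genes with none there thus both had medians below that of the middle class. Of the 57 ribosomal protein genes with a start 11 had 8 of 8, as had 2 of 22 other TOP genes. The count describes the annotated start, which may not be the one used in this tissue.

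Rpl22 encodes the ribosomal protein that carries the tag. Its ratios were -0.55, -0.75 and -0.53 with AZD8055 and -0.02, -0.03 and 0.16 in tumor, without overlap. The difference was -0.64 ± 0.24 (SE, adjusted p = 0.0526), and its adjusted p was 6.34e-05 with the pairs held together. The tagged and the untagged transcript are not separated in the count table.

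Genes of the mTOR and AKT pathway gave 9 higher (17.3%, against 12.3% of all genes) and 6 lower (11.5%, against 20.8%) of 52 (19 and 9 with the pairs held together) and a median of 0.20, which came to 0.02, with 3 higher and 12 lower, with plain library totals. Without tumor replicate 2 the counts were 4 and 6. Akt2, a kinase above mTOR complex 1, had ratios of -0.86, -0.66 and -0.26 with AZD8055 and 0.03, 0.17 and 0.31 in tumor, a difference of -0.76 ± 0.15 (SE, adjusted p = 0.00112). Sgk1, a kinase activated by mTOR complex 2, differed by -0.81 ± 0.17 (SE, adjusted p = 0.00179). Rragc, a GTPase that brings mTOR complex 1 to the lysosome, rose by 0.60 ± 0.12 (SE, adjusted p = 0.0018), and Mlst8, a subunit of both mTOR complexes, by 0.59 ± 0.13 (SE, adjusted p = 0.00299). Pik3r1, the regulatory subunit of PI3-kinase, had a difference of -0.43 ± 0.21 (SE, adjusted p = 0.122) and passed with the pairs held together (adjusted p = 0.00537).

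ATF4 targets had 3 higher (10.3%) and 7 lower (24.1%) of 29, shares near the 12.3% and 20.8% of all genes (7 and 10 with the pairs held together), with a median of -0.18. Without tumor replicate 2, AZD8055 replicate 1 or AZD8055 replicate 2 the counts were 2 and 4. The 4 members named, those with the smallest p, were all lower. Phgdh, the first enzyme of serine synthesis, which astrocytes express strongly, had ratios of -2.64, -2.95 and -2.02 with AZD8055 and -0.33, 0.07 and 0.20 in tumor, a difference of -2.48 ± 0.32 (SE, adjusted p = 2.78e-05). Psat1, the next enzyme of that pathway, differed by -1.62 ± 0.20 (SE, adjusted p = 2.02e-05), the cystine transporter gene Slc7a11 by -1.74 ± 0.15 (SE, adjusted p = 7.25e-07) and the amino acid transporter gene Slc7a5 by -1.21 ± 0.28 (SE, adjusted p = 0.00396). The astrocyte markers, with 24 of 24 lower, moved with them, and their part in this was not tested.

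Cholesterol-synthesis genes gave 2 higher (8.70%, against 12.3% of all genes) and 1 lower (4.35%, against 20.8%) of 23 (5 and 1 with the pairs held together). The squalene synthase gene Fdft1 rose by 0.69 ± 0.15 (SE, adjusted p = 0.00215), and Pmvk fell, at -0.35 ± 0.13 (SE, adjusted p = 0.0461), a call lost in each setting without tumor replicate 2 or 3 or without any AZD8055 replicate. Lysosome and V-ATPase genes gave 17 higher (43.6%, against 12.3% of all genes) and 8 lower (20.5%, near the 20.8%) of 39, or 11 and 10 with plain library totals. Atp6v0d1, a V-ATPase subunit, rose by 0.85 ± 0.13 (SE, adjusted p = 1.19e-04), while the cholesterol-export genes Npc2 and Npc1 differed by -1.55 and -1.11, both past the threshold. Secretory-pathway genes gave 1 higher (2.86%) and 2 lower (5.71%) of 35 (7 and 6 with the pairs held together), with Rpn1 at 0.40 ± 0.14 (SE, adjusted p = 0.0353) and the translocon gene Sec61a1 at -0.80 ± 0.22 (SE, adjusted p = 0.0116). Rpn1 lost its call without AZD8055 replicate 2, as did Sec61a1, and the list's median of 0.13 turned negative with plain library totals.

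Immediate-early genes, which neuronal activity induces, gave 2 higher and 2 lower of 31 (6.45% each way, against 12.3% and 20.8% of all genes). With the pairs held together the counts were 12 and 7, and their median of 0.15 was -0.02 with plain library totals. Egr3 rose by 1.19 ± 0.41 (SE, adjusted p = 0.0346) and Ier5 by 0.70 ± 0.21 (SE, adjusted p = 0.0163), while Klf4 differed by -1.91 ± 0.50 (SE, adjusted p = 0.00829) and Trib1 by -1.40 ± 0.42 (SE, adjusted p = 0.0173). Egr3 and Ier5 lost their calls without tumor replicate 2, Egr3 and Trib1 without AZD8055 replicate 2.

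Genes of the actomyosin and spectrin cytoskeleton had lower ratios with AZD8055 more often than higher ones. Of 44 actomyosin and spectrin genes 21 were lower (47.7%, against 20.8% of all genes) and 6 higher (13.6%, near the 12.3%), with a median of -0.93. The median ratio of the list was 0.20 ± 0.06 (SD, n = 3 pairs) in tumor, -0.06 ± 0.06 with AZD8055 and 0.00 ± 0.02 in controls; the median of the differences is taken gene by gene and is not the difference of these medians. All tumor ratios lay above all control ratios for 12 of the 21 lower members, 5 of the 17 not called and 0 of the 6 higher; calls and this count share the tumor libraries, so nothing is read from the split. This list was drawn up with earlier results of these libraries known and is not independent evidence of its direction.

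Myh9, the heavy chain of non-muscle myosin IIA, shows the pattern. Its IP level was 445, 512 and 487 CPM in tumor and 68.1, 51.9 and 55.7 CPM with AZD8055, while its inputs held 196, 131 and 163 and 156, 139.7 and 115. The log2 ratios were 1.19, 1.96 and 1.58 in tumor, -1.20, -1.43 and -1.04 with AZD8055 and -0.36, -0.48 and -0.34 in controls. Only the tumor pairs lay above 0, and AZD8055 lay below control as well. The difference from tumor was -2.79 ± 0.20 (SE, adjusted p = 9.79e-08).

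Myh10, the heavy chain of non-muscle myosin IIB, which neurons express, had ratios of 1.34, 2.07 and 1.68 in tumor, 0.12, 0.30 and 0.16 with AZD8055 and 0.21, -0.03 and 0.03 in controls. AZD8055 and control pairs lay close to 0 and the tumor pairs lay more than 1 above it. The difference from tumor was -1.57 ± 0.32 (SE, adjusted p = 0.0016). Myh14, the third of these heavy chains, and the pointed-end-directed myosin gene Myo6 were above input in tumor and below it with AZD8055, and differed by -2.75 ± 0.35 (SE, adjusted p = 2.56e-05) and -2.71 ± 0.23 (SE, adjusted p = 5.31e-07).

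Other members fell without a raised tumor ratio. Cald1, an actin-binding gene of smooth muscle and glia, had a fitted ratio of -0.37 in tumor, -0.29 in controls and -2.34 with AZD8055. Tln1, the integrin-linking talin, had -0.25, -0.36 and -2.43 in the same order.

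The tumor-against-control comparison gave only 11 calls, 8 higher (0.05%) and 3 lower (0.0187%), with 528 genes at an unadjusted p under 0.05 and 40 calls by DESeq2. The 8 higher genes, named here after their values were seen, were Myh9, Limch1, Sptan1, Dst, Myo5a, Syne2, Gtl3 and Rgl2. Myh9 differed between tumor and control by 1.95 ± 0.20 (SE, adjusted p = 2.11e-04), the actomyosin regulator gene Limch1 by 1.59 ± 0.22 (SE, adjusted p = 0.00606), the spectrin gene Sptan1 by 1.57 ± 0.27 (SE, adjusted p = 0.0394) and the cytoskeletal linker gene Dst by 1.57 ± 0.18 (SE, adjusted p = 9.40e-04). All 8 also had a lower ratio with AZD8055 than in tumor, from -2.79 for Myh9 and -2.47 for Limch1 to -0.94 for Rgl2, a comparison that shares the tumor libraries. Sptan1 stood at 1755, 3012 and 3517 CPM in the tumor IPs and 1024, 1105 and 1293 in the AZD8055 IPs. The 3 lower genes were Ccdc167, 9530082P21Rik and 2700099C18Rik, of which 9530082P21Rik is 1 of 49 genes that were low in all PD013 libraries. With the pairs held together, 51 genes were higher and 16 lower. The count ran from 3 without control replicate 2 to 21 without tumor replicate 1, and was 4 without control replicate 1 or tumor replicate 3, 5 without control replicate 3 and 6 without tumor replicate 2.

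Against control, the AZD8055 ratio was higher for 1867 genes (11.7%) and lower for 3086 (19.3%), 4953 in all, and the calls fell to 3163 without control replicate 2, 3222 without control replicate 3 and 3273 without AZD8055 replicate 2. The median difference from control was -2.12 for astrocyte genes and 0.93 for excitatory-neuron genes, and the median difference between tumor and control was -0.10 and 0.07 for the same lists. The 3 comparisons share libraries, so these values are given side by side only.

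Bcar1 and Nedd9, docking proteins of focal adhesions, were above input in every pair. Bcar1 had ratios of 2.39, 2.32 and 3.16 with AZD8055, 1.62, 1.80 and 1.75 in tumor and 1.15, 0.33 and 1.52 in controls. The AZD8055 pairs lay above the tumor pairs, and the difference of 0.98 ± 0.38 (SE, adjusted p = 0.0585) passed with the pairs held together (adjusted p = 0.00209). Nedd9 had a difference of 0.23 ± 0.53 (SE, adjusted p = 0.775). The list of 21 docking and adhesion genes gave 2 higher (9.52%, against 12.3% of all genes) and 8 lower (38.1%, against 20.8%). Among the lower was paxillin (Pxn) at -2.02 ± 0.31 (SE, adjusted p = 1.39e-04). With the pairs held together 5 were higher and 10 lower. Without tumor replicate 2 or 3, without AZD8055 replicate 3 or with plain library totals 0 were higher.

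**Figure D4:**
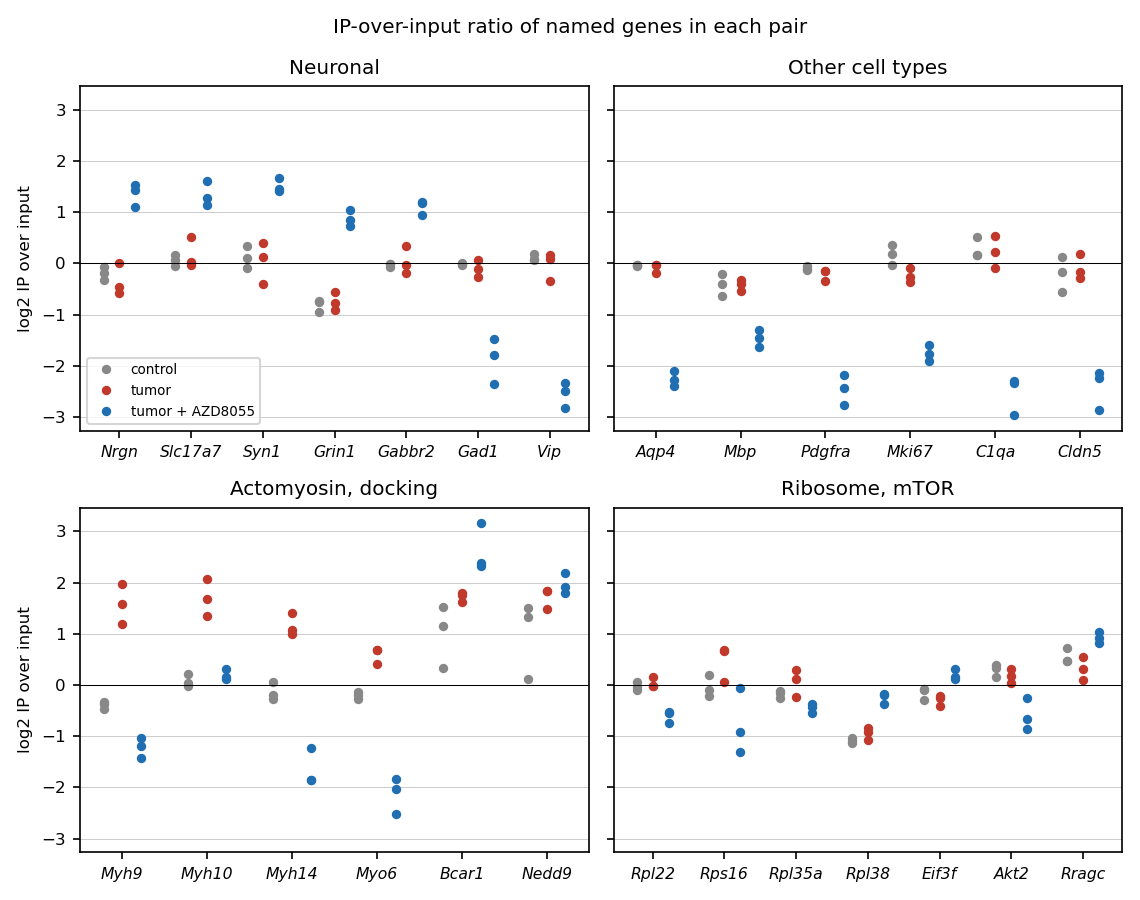
Log2 IP over input (y axis) of 26 named genes in each of the 9 pairs, coloured by condition, in 4 panels. Myh9, Myh10, Myh14 and Myo6 have tumor points above both other conditions, whereas for the glial, glioma, immune and vascular genes only the AZD8055 points lie below -1.

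The 12 highest differences by the naming rule were of another kind. They were Rell2, Apex1, Lypd1, Thyn1, Clvs1, C1ql3, Ube2e1, Stub1, Echdc1, Srr, Nrgn and BC029722, from 2.88 for Rell2 and 2.72 for Apex1 down to 1.68 for BC029722. Stub1, the ubiquitin ligase CHIP, stood at 65.4, 66.1 and 64.0 CPM in tumor inputs but 20.4, 21.1 and 21.2 in AZD8055 inputs. Its IP levels were 24.1, 27.9 and 29.9 CPM in tumor and 35.2, 33 and 35.8 with AZD8055, and the ratio differed by 1.98 ± 0.13 (SE, adjusted p = 3.76e-08). Its control ratios were -1.25, -1.16 and -1.13, close to the tumor ratios of -1.44, -1.24 and -1.10. Apex1, the DNA repair endonuclease, differed by 0.20 between IPs and by -2.52 between inputs, with a fitted ratio of -2.27 in tumor and -2.23 in controls.

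Most of the others on the high side had the same form. Lypd1, Thyn1, Clvs1, Ube2e1, Echdc1, Srr, C1ql3 and Rell2 had input differences of -2.33, -1.77, -1.43, -1.35, -2.13, -1.15, -1.47 and -2.27, each larger in size than the IP difference. In every gene of the 8 each control and tumor input of set PD013 lay above each AZD8055 input, and library set and treatment cannot be told apart for them. Nrgn was the exception, with an IP difference of 1.44 and an input difference of -0.27.

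The 12 lowest included Cd163, Nfe2l2, Cd9, Mical1, Tnfaip6, A2m, Aebp1, Hist1h3b, Matn4, Nrm and Mlc1, from -3.80 to -2.80. Cd163, the haemoglobin scavenger receptor of perivascular macrophages, stood at 3.90, 1.95 and 2.24 CPM in tumor inputs and 18.9, 21.5 and 12.7 in AZD8055 inputs, so its difference of -3.80 ± 0.42 (SE, adjusted p = 7.51e-06) lay mainly in the inputs, and the control ratios of 1.70, 2.08 and 1.85 were on the tumor side. For the other members the IP part was the larger. Cd9, a tetraspanin of glia and glioma cells, stood at 357, 208 and 202 CPM in tumor IPs and 27.7, 20.9 and 23.9 in AZD8055 IPs, and differed by -3.19 ± 0.46 (SE, adjusted p = 8.75e-05). Nfe2l2, the oxidative stress regulator NRF2, differed by -3.24 ± 0.28 (SE, adjusted p = 5.82e-07) and Mlc1, an astrocyte membrane protein, by -2.80 ± 0.23 (SE, adjusted p = 3.97e-07). A2m, at -2.96 ± 0.85 (SE, adjusted p = 0.0141), lost its call without AZD8055 replicate 2.

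**Figure D5:**
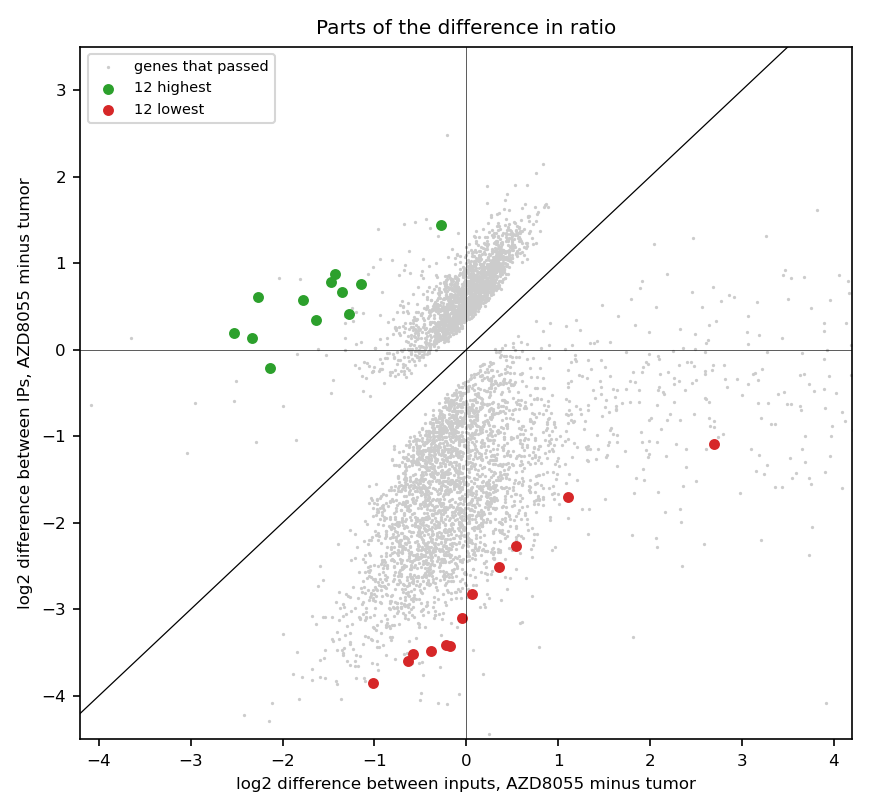
Difference between the IP libraries (y axis) and between the input libraries (x axis), AZD8055 minus tumor, both log2, for the genes whose ratio differed (grey) and the 12 highest (green) and 12 lowest (red) by the naming rule; the diagonal marks no difference in ratio. The red points, save Cd163, lie near or below -1.7 on the y axis, while the green points, save Nrgn, lie at negative values of the x axis beyond -1.

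Some genes changed sides. For 181 genes the ratio was called above input in one condition and below it in the other, with the difference itself called: 61 were above with AZD8055 and below in tumor, and 120 the reverse. Of these 80 met the naming rule. For 51 of the 52 in the first direction the control ratio was on the tumor side, and the input difference was the larger part for 26 of the 52. In the other direction the control ratio was on the tumor side for 20 of 28, and the input part was larger for 2 of 28. C1ql3, a secreted C1q-like synaptic protein, had ratios of 1.32, 1.22 and 0.96 with AZD8055 and -0.87, -1.12 and -1.22 in tumor. Srr, the serine racemase, had 1.04, 0.93 and 0.72 and -0.85, -1.0 and -1.16. Nrm, a nuclear envelope gene, went the other way with -2.54, -2.35 and -1.50 and 0.62, 0.80 and 0.61. None of the 3 overlapped between conditions, which the naming rule required of them.

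A small set of genes followed the library set itself. In the PD013 libraries 49 genes were more than 4-fold lower, and 7 more than 4-fold higher, than in every other library, and PD015 had 0 of either. All 49 were called lower in this contrast and 1 of the 7 higher, so they entered the counts but not the highest and lowest genes. Cdr1 stood at 0, 0.0414 and 0 CPM in tumor inputs but 42.4, 79.6 and 80.0 in tumor IPs and 73.8, 76.8 and 80.8 in AZD8055 inputs. Klhl34 stood at 0.116, 0 and 0.164 in tumor inputs and 21.0, 31.4 and 34.0 in AZD8055 inputs. Snrpf, a spliceosome protein gene, was the reverse, with 15.2, 8.99 and 9.54 CPM in tumor inputs and 0.456, 0.893 and 0.668 in AZD8055 inputs. Leaving these genes out before scaling gave 5225 calls against 5296.

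Long noncoding RNAs had a lower median than coding genes. Of 641 long noncoding RNAs matched in RefSeq 156 were lower (24.3%) and 18 higher (2.81%), with a median of -0.47. Of 13962 protein-coding genes 2922 were lower (20.9%) and 1832 higher (13.1%), with a median of -0.02. The lower shares were thus near each other, and the higher shares were further apart. Malat1, an abundant nuclear RNA, stood at 2943, 4312 and 6422 CPM in the AZD8055 IPs and 9422, 8868 and 8991 in the tumor IPs. Its ratios were -2.62, -2.30 and -1.42 and -0.29, -0.40 and -0.78, and -1.62, -0.75 and -1.19 in controls, so the control pairs overlapped both other groups, and the difference from tumor was -1.54 ± 0.40 (SE, adjusted p = 0.00829). Of 16 nuclear long noncoding RNAs 3 were lower (18.8%, near the 20.8% of all genes) and 0 higher (9 and 1 with the pairs held together). Among the lower were Sox2ot at -1.60 ± 0.19 (SE, adjusted p = 1.38e-05) and Neat1 at -1.27 ± 0.41 (SE, adjusted p = 0.0255), whose call was lost without replicate 1 or 2 of either condition. Meg3 had a difference of -1.50 ± 0.73 (SE, adjusted p = 0.123) and passed with the pairs held together (adjusted p = 0.001). Of 24 small nucleolar and Cajal body RNAs 4 were lower (16.7%) and 1 higher (4.17%), or 5 and 3 with the pairs held together, and 1 to 3 were lower without a replicate. Rmrp, the RNA of a processing ribonuclease, differed by -1.86 ± 0.57 (SE, adjusted p = 0.0193) and the spliceosomal Rnu12 by 2.13 ± 0.61 (SE, adjusted p = 0.0136). Both calls were lost without AZD8055 replicate 1, and Rmrp's also without AZD8055 replicate 3.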

How the data were processed

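RNA of input and IP fractions of Camk2a-Cre-Rpl22HA mouse brain was sequenced from directional libraries, per the labels' protocols. STAR, DESeq2 and the build mm10 are listed, without roles, in the submitters' processing notes; the annotation and counting tool were not given in the sources used here. The authors deposited raw counts per gene symbol for 18 libraries, and 0 sample columns were left unmapped.

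Counts were filtered with filterByExpr, scaled by trimmed mean of M values (TMM) and fitted over all 18 libraries in edgeR 4.0.16 (R 4.3.3) with the quasi-likelihood test and no pairing. The contrast was (AZD8055 IP minus input) minus (tumor IP minus input), with Benjamini-Hochberg adjustment over 16016 genes. The SE is the log2 difference over the square root of F. CPM values use TMM sizes. Pair ratios are differences of log2 CPM with a prior count of 2. Fits were checked on simulated counts.

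The replicate numbers pair input with IP. After removal of group means, same-numbered libraries correlated at 0.18 to 0.24 in controls, 0.49 to 0.74 in tumor and 0.23 to 0.47 with AZD8055, and each input correlated best with its own number. The blocked values are printed where they change a call or move a count by over 1.5 times.

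The 33 gene lists and the comparison were chosen with earlier results of these data known. Named genes were the 12 highest and 12 lowest past the threshold with a mean of at least 10 CPM and pairs that do not overlap, 6 in each direction of those called on opposite sides of input, at most 4 called and 2 not called per list, and 17 fixed genes. Predicted genes, and genes over 4-fold apart in a library set, were left out of the highest and lowest. Alternatives used DESeq2 1.42.0, limma 3.58.1 on pair ratios, other scalings and filters, 12-library fits and leaving out each replicate. RefSeq symbols matched 92.8% of tested genes. Some genes that met the rule are not reported here.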

Additional observations from a re-analysis of the deposited data

Results flagged for a closer look

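The IP-minus-input effect differed between conditions, by the test of the difference itself, for 5296 genes between AZD8055 and tumor, and for 11 genes between tumor and control. Among the former, 181 genes were called on opposite sides of input. The genes of this kind picked by the naming rule were Rell2, with a difference of 2.88 on the log2 scale, Clvs1 with 2.30, C1ql3 with 2.26, Ube2e1 with 2.01, Stub1 with 1.98 and Srr with 1.91, above input with AZD8055 and below it in tumor. In the reverse direction they were Cd163 with -3.80, Nfe2l2 with -3.24, Nrm with -2.81, Myh9 with -2.79, Myh14 with -2.75 and Myo6 with -2.71. The input part was larger than the IP part for all 6 of the first direction and, of the second, for Cd163 alone. Groups of 3 libraries are too small for a search for single outlying libraries.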

How the results depend on the processing

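Of 145 genes given with a difference between AZD8055 and tumor, 131 passed, and 114 of these passed in all 15 alternatives. The other 17 lost the call in at least 1, and no named gene changed sign in any. With the replicate block, 10 of the remaining 14 genes passed as well and none of the 131 lost its call. The count of 5296 became 8025 with the replicate block and 7980 with limma on pair ratios, and ran from 3498 (without AZD8055 replicate 2) to 5926 (without tumor replicate 1) when a replicate was left out. Against control, the AZD8055 count of 4953 became 7599 with the replicate block and 7713 with limma, and ran from 3163 to 4442 without a replicate (lowest without control replicate 2). The tumor-against-control count of 11 became 40 with DESeq2, 17 with plain library totals, 67 with the replicate block and 66 with limma, and ran from 3 to 21 without a replicate. The cause of these moves was not tested. Fitting only the 12 libraries gave 4170, DESeq2 5889, plain totals 4908, no filter 4975 and a floor of 5 CPM 3824 for AZD8055 against tumor. Of 495 recomputed list medians, 434 stayed within the spread between pairs. Plain totals lowered the excitatory pair difference from 0.78 to 0.60 and the ribosomal protein one from -0.26 to -0.44. Library set and treatment cannot be told apart, and 3 pairs per condition limit what a missed threshold shows.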
